A study of Rattus norvegicus with 18 samples.

Results

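The antioxidant defence of peripheral blood mononuclear cells (PBMC, the white blood cells with an unlobed nucleus, chiefly T cells, B cells, NK cells and monocytes) was examined through 10 genes of glutathione, the pentose phosphate pathway and the removal of reactive oxygen. They were Gclc, Gclm, Gsr, Tkt, Taldo1, Cat, Prdx1, Sod1, Nqo1 and Fth1, and a probe belonged to the set when the array's own gene name equalled one of these symbols. The array named 15185 genes in all. The rule gave 12 of its 41012 probes, since Sod1 and Fth1 had 2 probes each. Of these, 11 probes of 9 genes were measured well enough to be tested, among 25207 tested probes. For a gene with 2 probes the brighter one stands for the gene and the other is given beside it. Gclm was not well above background on any array.

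Glutathione is the main small thiol of the cell and is made in a first, rate-limiting step by glutamate-cysteine ligase. When it has reduced a peroxide it is oxidised, and glutathione reductase restores it with NADPH, much of which comes from the pentose phosphate pathway. Catalase, peroxiredoxins and superoxide dismutase remove peroxide and superoxide directly. Many of these genes are targets of the transcription factor NRF2, which binds antioxidant response elements and is activated by oxidants and electrophiles, and diets rich in fat or protein are often studied for their effect on this system.

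Male rats of the Wistar strain ate a high-fat, a high-protein or a low-fat diet, with 6 rats per diet. Of the energy in the high-fat diet (HFD), fat gave 60%, protein 20% and carbohydrate 20%. In the high-protein diet (HPD), based on casein, fat gave 10%, protein 45% and carbohydrate 45%, and in the low-fat control diet (LFD) fat gave 10%, protein 20% and carbohydrate 70%. Feeding began at 2 months of age and lasted 4 months, HFD and HPD were matched each day to the energy that the LFD rats ate, and all rats were fasted for 14 h before sampling. On every array the Cy5-labelled RNA of 1 rat was hybridised against a Cy3-labelled pool of the rats' RNA, so each value is the log2 ratio of 1 rat to that pool. One array was titled HFD replicate 7 while its source name and description gave HPD. It was counted as HPD and is called HPD replicate 7.

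The 18 arrays lay on 5 slides, and no slide held the diets in equal numbers. Slide 1 carried 2 HFD and 2 LFD arrays and no HPD array, slide 2 carried 1 HFD and 3 HPD arrays, and slide 4 carried 2 HPD and 2 LFD arrays. Slide 3 carried 2 HFD arrays, 1 HPD and 1 LFD array, and slide 5 carried 1 HFD and 1 LFD array. Differences from LFD within slides 3 and 5 therefore rest on 1 LFD array each. Cy5 was well above background for 53.1 to 63.4% of probes per array, and the median Cy5 signal was 61.5 to 84.3 intensity units. The log2 ratios of 2 arrays correlated at -0.497 to 0.609 over the tested probes. HFD replicates 1 and 6 were the most alike at 0.609, and the next pair reached 0.517. All 15 T cell markers and all 9 B cell markers tested were well above background on every array, as were 10 of 12 monocyte markers and 12 of 12 NK cell markers. So were 10 of 10 platelet markers, 17 of 18 erythroid markers and 4 of 8 neutrophil markers, lists drawn up for cells other than mononuclear ones. Whether each gene is confined to the cell type of its list was not tested. In RNA of mixed cells, fewer cells of a type and less RNA per cell cannot be told apart.

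The promoters of 8 of the 10 genes, taken from RefSeq on build GRCr8 as 250 bases before to 50 bases after the annotated start, were searched on both strands for TGACNNNGC, the core of the antioxidant response element, whose reverse complement is GCNNNGTCA. The motif was present in 12.1% of all 33469 promoters of this length and in 2 of the 8, Gclm and Prdx1. Those 2 are shown with the motif in capitals, together with the promoter of Nqo1, the gene with the smallest p between diets, in which these letters were not found within the window. A match describes the sequence only. The regions are chr2:213031885-213032184 on the plus strand for Gclm, chr5:135383656-135383955 on the plus strand for Prdx1 and chr19:52220218-52220517 on the minus strand for Nqo1, each written along its gene, with the motif starting 172 bases before the start of Gclm and 135 before that of Prdx1.
Gclm: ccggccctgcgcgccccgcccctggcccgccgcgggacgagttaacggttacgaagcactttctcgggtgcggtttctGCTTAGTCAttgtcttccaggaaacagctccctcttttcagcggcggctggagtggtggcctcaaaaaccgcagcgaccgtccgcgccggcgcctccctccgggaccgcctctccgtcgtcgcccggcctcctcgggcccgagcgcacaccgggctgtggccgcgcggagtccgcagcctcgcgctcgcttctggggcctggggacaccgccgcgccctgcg
Prdx1: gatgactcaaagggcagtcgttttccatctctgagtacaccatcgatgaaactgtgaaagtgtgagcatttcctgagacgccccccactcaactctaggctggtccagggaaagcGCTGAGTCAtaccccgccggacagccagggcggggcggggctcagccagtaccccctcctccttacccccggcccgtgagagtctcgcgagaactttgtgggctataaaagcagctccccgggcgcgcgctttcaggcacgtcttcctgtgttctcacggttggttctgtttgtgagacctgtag
Nqo1: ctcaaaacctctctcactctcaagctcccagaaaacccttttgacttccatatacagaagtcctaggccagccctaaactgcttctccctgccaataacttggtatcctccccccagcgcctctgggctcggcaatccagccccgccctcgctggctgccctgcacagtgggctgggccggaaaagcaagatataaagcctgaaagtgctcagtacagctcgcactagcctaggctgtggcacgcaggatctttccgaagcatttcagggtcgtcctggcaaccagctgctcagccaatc

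Across the set, no gene was called different between diets once all probes were taken into account. Nqo1 had a lower ratio on both test diets than on LFD, by 0.49 on HFD and 0.47 on HPD on the log2 scale, while the signal of the animals' own channel differed by 0.02 and 0.04. Gsr, Fth1, Gclc and Tkt had lower mean ratios on HPD than on LFD, by 0.30 to 0.61, with overlapping arrays. Cat had a higher mean ratio on HFD than on LFD, and Prdx1, Sod1 and Taldo1 differed from LFD by at most 0.14 on either diet.

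With limma and Benjamini-Hochberg adjustment over 25207 probes, none of the 9 genes was called for HFD against LFD (0% of all probes), for HPD against LFD (0%) or for HPD against HFD (0%). The lowest adjusted p of any probe was 1, 0.529 and 0.995 in the 3 comparisons. At an unadjusted p under 0.05, 1 of the 9 genes passed for HFD against LFD, where 2.01% of all probes did. The same count was 1 of 9 for HPD against LFD, against 2.84% of all probes, and 0 of 9 for HPD against HFD, against 3.02%. In both cases the gene was Nqo1, which was lower, as were 1.19% of all probes at that p for HFD and 1.21% for HPD. For no gene did the arrays of 2 diets separate without overlap, which occurred downwards for 0.0438% of probes on HFD against LFD and for 0.0319% on HPD against LFD.

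By sign alone, 5 of the 9 genes had a lower mean on HFD than on LFD, against 48.5% of all probes. On HPD 7 of 9 were lower than on LFD, against 46.1% of all probes, and 7 of 9 were lower than on HFD, against 47.7%. The median difference of the 9 genes was -0.06 for HFD minus LFD, -0.30 for HPD minus LFD and -0.19 for HPD minus HFD, beside 0.01, 0.02 and 0.01 over all tested probes. These 3 comparisons share their groups, so they are not independent of each other.

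**Figure D1:**
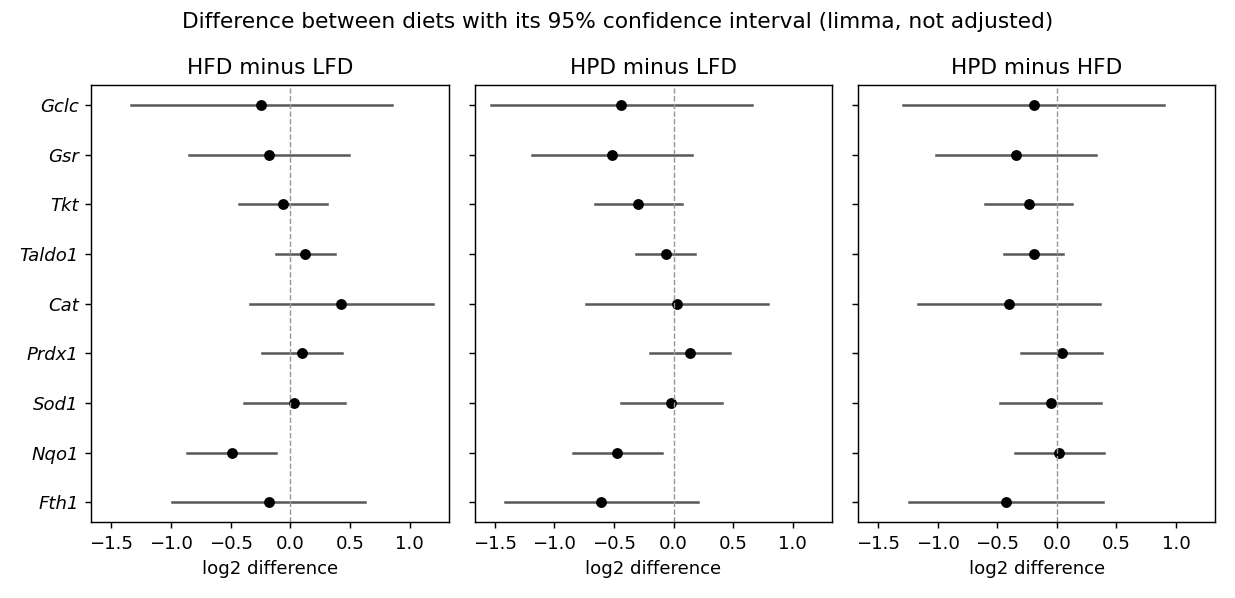
Log2 difference of each gene between diets (x axis, log2 units) with its 95% confidence interval from limma, not adjusted for the number of probes, in 3 panels for HFD minus LFD, HPD minus LFD and HPD minus HFD. The interval leaves 0 for Nqo1 in the first 2 panels, from -0.87 to -0.12 and from -0.85 to -0.09, and spans 0 for each of the other 8 genes in all 3.

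Glutathione synthesis was measured through Gclc, the catalytic subunit of glutamate-cysteine ligase, with a probe at chr8:82761662-82761721 on build rn4. Its Cy5 signal was close to background, well above it on 5 of 6 HFD arrays, 3 of 6 HPD arrays and 4 of 6 LFD arrays. The log2 ratio of Gclc was -0.47 at its lowest, -0.11 at the median and 1.25 at its highest on HFD, -0.89, 0.06 and 0.82 on HPD, and -1.17, 0.11 and 2.28 on LFD. The LFD arrays had a wider range than those of either other diet, and all 3 overlapped. The difference was -0.24 ± 0.52 (SE) for HFD minus LFD (limma adjusted p = 1) and -0.44 ± 0.52 for HPD minus LFD (adjusted p = 1). Leaving out 1 array at a time moved the HPD difference between -0.75 and -0.06. The highest 2 LFD values were both on slide 1, and without that slide the difference was 0.37 for HPD and 0.32 for HFD, so its sign rested on those arrays. Gclm, the modifier subunit that raises the affinity of the enzyme for glutamate, had a probe at chr2:218915215-218915274 on rn4 that was not well above background on 18 of 18 arrays, and its signal had been replaced by the scanner software's lower bound on all of them. No difference between diets was measurable for it.

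Glutathione recycling was measured through Gsr, glutathione reductase, with a probe spanning chr16:62257899-62258792 on the minus strand of rn4. Its log2 ratio was -0.90, -0.15 and 0.56 (lowest, median and highest) on HFD, -0.93, -0.48 and -0.07 on HPD, and -0.75, -0.22 and 1.60 on LFD. All 6 HPD arrays lay below the LFD mean, and 4 of 6 lay below the LFD median, since LFD replicate 2, at 1.60, raised the mean while the next LFD array was at 0.19. The difference for HPD minus LFD was -0.52 ± 0.32 (limma adjusted p = 1), a ratio 1.43-fold lower, and for HFD minus LFD it was -0.18 ± 0.32 (adjusted p = 1). Without LFD replicate 2 these became -0.21 and 0.13, and without slide 1 -0.09 and 0.10. Within slides, HPD minus LFD was -0.82 on slide 3 and 0.12 on slide 4, and HFD minus LFD was -0.75, -0.37 and 0.12 on slides 1, 3 and 5. Over the 18 arrays Gsr correlated at 0.711 with the mean of the erythroid markers, at 0.588 with monocyte and at 0.577 with platelet markers. The part of these cell types in the Gsr values was not tested.

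The pentose phosphate pathway was measured through Tkt and Taldo1, transketolase and transaldolase, the enzymes of its non-oxidative branch that return pentose carbon to glycolysis. Tkt, probed at chr16:5933619-5933678 on rn4, had log2 ratios of -0.34, 0.11 and 0.41 on HFD, -0.64, -0.20 and 0.34 on HPD, and -0.04, 0.08 and 0.37 on LFD. Of the 6 HPD arrays, 4 lay below every LFD array and the other 2 lay within the LFD range. The difference for HPD minus LFD was -0.30 ± 0.17 (limma adjusted p = 1), or 1.23-fold lower. It was negative within both slides that held the 2 diets, at -0.62 on slide 3, from 1 array per diet, and -0.34 on slide 4. With slide as a block it was -0.40. HFD differed from LFD by -0.06 ± 0.17 (adjusted p = 1).

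Taldo1, probed at chr1:201593129-201593188 on rn4, had the narrowest range of the 9 tested genes, 0.62 over all 18 arrays. Its log2 ratio was -0.19, 0.04 and 0.33 on HFD, -0.29, -0.15 and 0.04 on HPD, and -0.23, -0.12 and 0.31 on LFD. All 6 HPD arrays were below the HFD mean, but the ranges overlapped. HPD minus HFD was -0.19 ± 0.12 (limma adjusted p = 0.995) and HFD minus LFD was 0.13 ± 0.12 (adjusted p = 1). The HFD difference was positive within slides 1, 3 and 5, at 0.15, 0.11 and 0.18. HPD minus LFD was -0.07 ± 0.12 (adjusted p = 1).

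Taldo1 followed the markers of monocytes most closely, and Tkt those of B cells and then of monocytes. Across the 18 arrays the mean log2 ratio of 12 monocyte markers correlated with Taldo1 at 0.821 and with Tkt at 0.679, values that share the pool, the slides and the arrays. HFD replicate 1 had the highest monocyte level, 0.91, and the highest Tkt and Taldo1, and HPD replicate 4 had the lowest monocyte level, -1.37, and the lowest Tkt and Taldo1. The monocyte list ranged from -0.50 to 0.91 on HFD, from -1.37 to 0.33 on HPD and from -0.46 to 0.51 on LFD. All 12 of its genes had a lower mean on HPD than on HFD, against 47.7% of all probes, and than on LFD, against 46.1%. None was called. Tkt correlated more strongly with the mean of 9 B cell markers, at 0.771. Of these, 3 of 9 were lower on HPD than on LFD, against 46.1% of all probes. The part of these cell types in the Tkt and Taldo1 values was not tested.

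**Figure D2:**
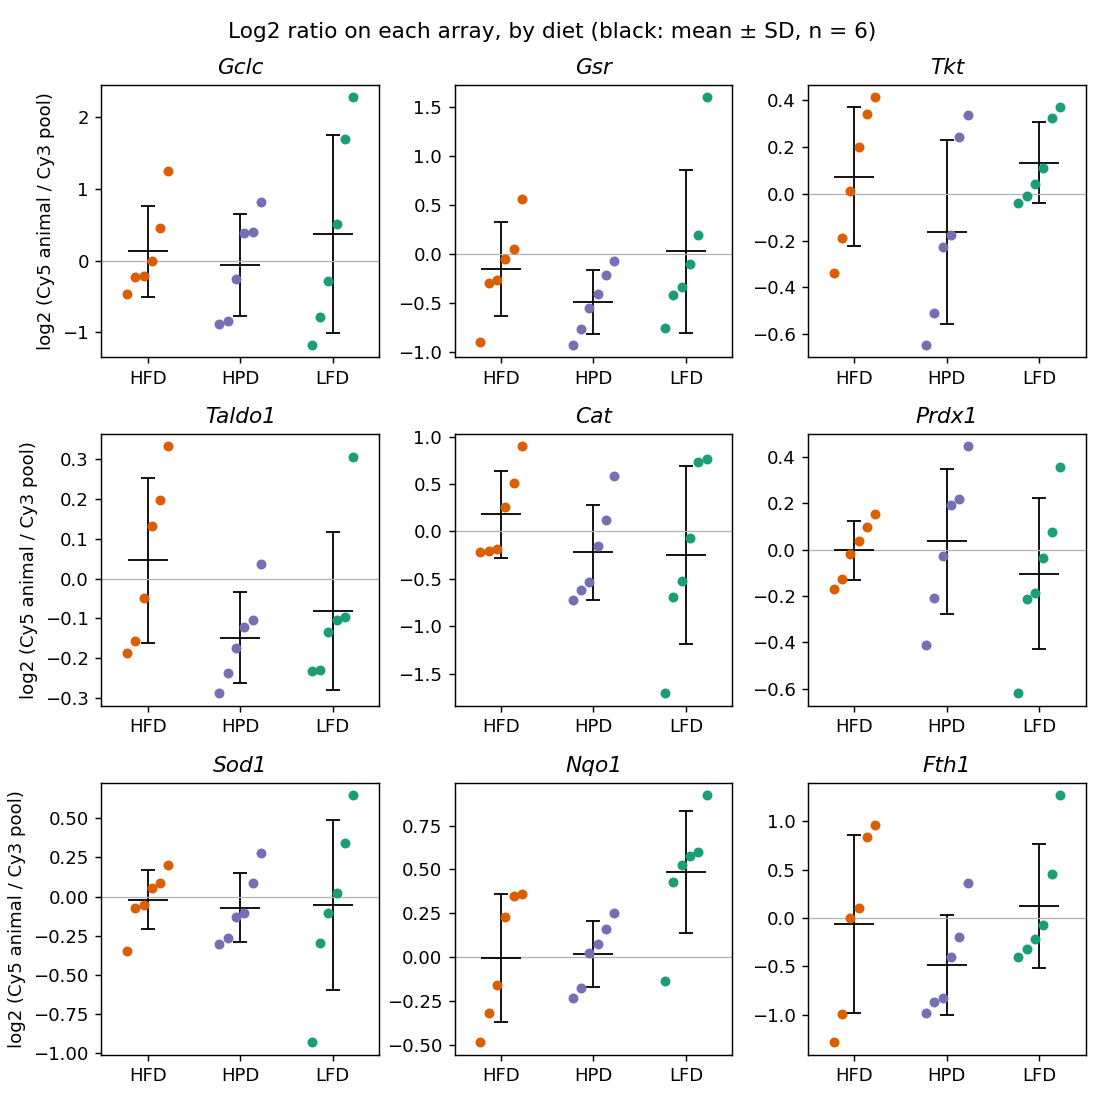
Log2 ratio of each of the 9 tested genes to the pool (y axis, log2 units, own scale per panel) on every array, with HFD, HPD and LFD from left to right and the mean ± SD of 6 arrays in black. The diets overlap in every panel, Nqo1 has 5 of 6 LFD arrays above all HFD and HPD arrays, and for Taldo1 the LFD array at 0.31 stands apart from the other 5, the highest of which is at -0.10.

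Peroxide removal was measured through Cat, catalase, which breaks down hydrogen peroxide in peroxisomes, with a probe spanning chr3:88683063-88685007 on rn4. The log2 ratio of Cat was -0.22, 0.04 and 0.90 on HFD, -0.72, -0.34 and 0.58 on HPD, and -1.71, -0.30 and 0.76 on LFD. All 6 HFD arrays were above the LFD mean, which was drawn down by 1 array, LFD replicate 6. HFD minus LFD was 0.43 ± 0.36 (limma adjusted p = 1), and it was -0.17, -0.14 and 1.53 within slides 1, 3 and 5, the last being 1 array against LFD replicate 6. Leaving out 1 array at a time gave 0.14, without that array, to 0.63, without LFD replicate 2. It was 0.73 without slide 1, 0.12 with the normexp background model of all spots and 0.26 with that model without marked spots. HPD minus LFD was 0.03 ± 0.36 (adjusted p = 1) and 0.53 without slide 1, and HPD minus HFD was -0.40 ± 0.36 (adjusted p = 0.995).

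Prdx1, a peroxiredoxin that reduces peroxide with electrons from thioredoxin, was probed at chr5:136983425-136984996 on rn4. Its log2 ratio was -0.17, 0.01 and 0.16 on HFD, -0.41, 0.08 and 0.45 on HPD, and -0.62, -0.11 and 0.36 on LFD. HFD minus LFD was 0.10 ± 0.16 (limma adjusted p = 1) and HPD minus LFD was 0.14 ± 0.16 (adjusted p = 1). The 95% interval of the HPD difference ran from -0.20 to 0.47.

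Sod1, the copper-zinc superoxide dismutase of the cytosol, had probes at chr11:29810826-29810885 and chr11:29810963-29811970 on the minus strand of rn4, whose ratios correlated at 0.986 over the 18 arrays. The brighter one had log2 ratios of -0.35, 0.0022 and 0.20 on HFD, -0.30, -0.12 and 0.28 on HPD, and -0.93, -0.04 and 0.65 on LFD. The means were -0.02 on HFD, -0.07 on HPD and -0.05 on LFD, while the LFD arrays spread widest, from LFD replicate 2 at the low end to LFD replicate 6 at the high end. HFD minus LFD was 0.03 ± 0.20 (limma adjusted p = 1) and HPD minus LFD was -0.02 ± 0.20 (adjusted p = 1). The second probe gave 0.03 and -0.02.

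Nqo1 encodes NAD(P)H quinone oxidoreductase, which reduces quinones by a pair of electrons at once and is widely used as a readout of NRF2 activity. Its probe, at chr19:37256979-37257038 on the minus strand of rn4, had log2 ratios of -0.49, 0.03 and 0.36 on HFD, -0.23, 0.05 and 0.25 on HPD, and -0.14, 0.55 and 0.92 on LFD. All 6 HFD and all 6 HPD arrays lay below the LFD mean and median. The LFD array that overlapped them was LFD replicate 6, and the other 5 were above every array of both diets. HFD minus LFD was -0.49 ± 0.18 (limma adjusted p = 1) and HPD minus LFD was -0.47 ± 0.18 (adjusted p = 1), ratios 1.41-fold and 1.39-fold lower. HFD and HPD share the LFD arrays in these comparisons, and HPD minus HFD was 0.02 ± 0.18 (adjusted p = 0.998).

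The Nqo1 difference in ratio was negative on every slide where it could be formed, from 1 or 2 arrays per diet. It was -0.60, -0.83 and -0.35 for HFD minus LFD within slides 1, 3 and 5, and -1.16 and -0.47 for HPD minus LFD within slides 3 and 4. Both slide 3 values rest on LFD replicate 3, the highest of all 18 arrays, and slide 5 set 1 array against 1. With slide as a block the Nqo1 difference was -0.53 for HFD (limma adjusted p = 1) and -0.72 for HPD (adjusted p = 0.64). Leaving out 1 array at a time gave -0.62 to -0.40 for HFD and -0.60 to -0.38 for HPD.

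The channels behind the Nqo1 ratio were read separately after the ratios were known. The Cy5 signal of the animals was 22, 35.7 and 44.1 intensity units on HFD (lowest, median and highest), 22.8, 30.9 and 46.6 on HPD, and 21.6, 32.1 and 42.4 on LFD. These ranges nearly coincide. The Cy3 signal of the pool at the same spots was 30.8, 33.9 and 35.6 on HFD, 25.8, 30 and 41.7 on HPD, and 15.6, 20.7 and 35.7 on LFD. On the log2 scale, after each array's 75th percentile was subtracted, Cy5 differed from LFD by 0.02 on HFD and 0.04 on HPD, and Cy3 by 0.51 on both. The pool is the same material on all arrays, and the difference in the Nqo1 ratio lay almost wholly in that channel. Cy3 was well above background for Nqo1 on 2 of 6 HFD arrays, 3 of 6 HPD arrays and 1 of 6 LFD arrays, whereas Cy5 was so on all 18. With the normexp background model, which adds 50 units to each signal before the ratio, the differences were -0.05 on HFD and -0.02 on HPD. Those 50 units exceed every Nqo1 signal given above and draw any ratio towards 0, so these values cannot tell where the difference lay.

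**Figure D3:**
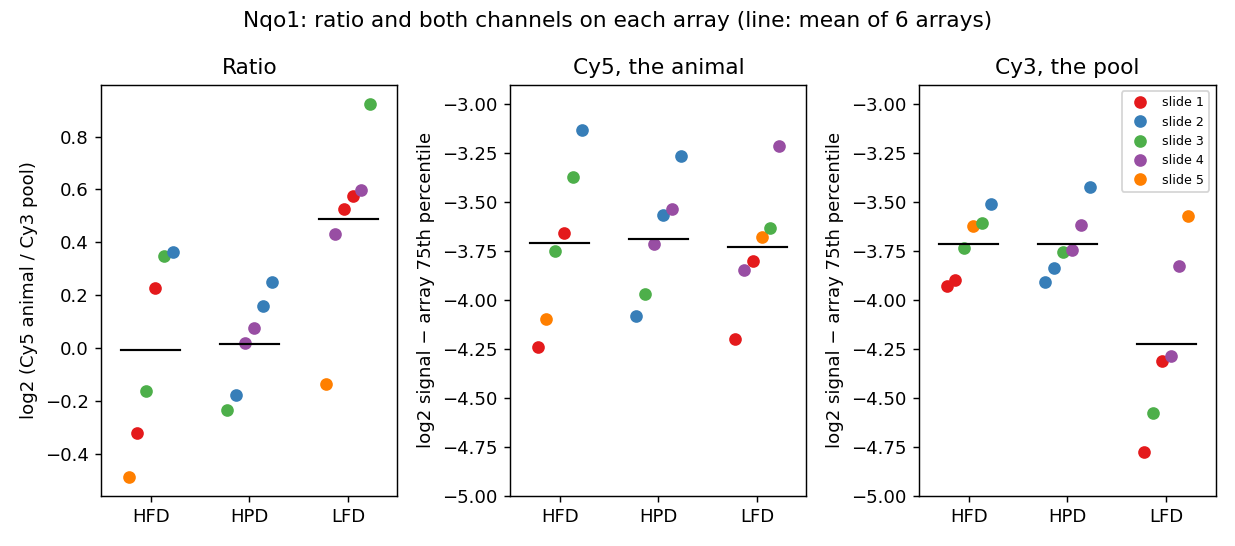
Nqo1 on each array, with HFD, HPD and LFD from left to right in 3 panels: the log2 ratio, the Cy5 signal of the animal and the Cy3 signal of the pool, both as log2 signal minus the array's 75th percentile, points coloured by slide and a line at the mean of 6 arrays. The means of Cy5 are -3.71, -3.69 and -3.73, and those of Cy3 are -3.71, -3.71 and -4.23.

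The channels of the other genes were read in the same way. For Gsr, HPD minus LFD was -0.35 in Cy5 and 0.17 in Cy3, and for Tkt it was -0.27 and 0.02. For Fth1 it was -0.45 and 0.16, so most of the lower ratio of these 3 genes lay in the animals' channel. For Gclc the HPD difference was -0.22 in Cy5 and 0.22 in Cy3, and its Cy3 signal was well above background on 2 of 18 arrays. For HFD minus LFD, Gclc was 0.11 in Cy5 and 0.35 in Cy3, so its lower ratio on HFD lay in the pool's channel, as for Nqo1. The higher ratio of Taldo1 on HFD than on LFD came with 0.02 in Cy5 and -0.11 in Cy3, and the lower ratio of Tkt on HPD than on HFD with -0.05 and 0.19. Cat on HFD differed from LFD by 0.83 in Cy5 and 0.39 in Cy3, so the animals' channel held the larger difference.

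Iron storage was measured through Fth1, the ferritin heavy chain, whose ferroxidase activity keeps iron in a form that does not feed radical chemistry. The brighter probe lay at chr1:212431855-212431914 and the other at chr1:24186076-24186135 on rn4. Ferritin heavy chain has processed copies elsewhere in mammalian genomes, and signal of the true gene and of such copies cannot be separated here. The probes' ratios correlated at 0.987, which cannot show whether both read the same transcript. The log2 ratio of the brighter probe was -1.29, 0.05 and 0.96 on HFD, -0.98, -0.62 and 0.37 on HPD, and -0.41, -0.14 and 1.27 on LFD. Of the 6 HPD arrays, 5 lay below the LFD mean and 3 below every LFD array, while HFD spread over both. HPD minus LFD was -0.61 ± 0.39 (limma adjusted p = 1), 1.52-fold lower, and the other probe gave -0.62 ± 0.37 (adjusted p = 1). Without LFD replicate 2 the value was -0.38. Within slides 3 and 4 it was -0.51 and -0.32. HFD minus LFD was -0.18 ± 0.39 (adjusted p = 1).

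Fth1 followed the platelet markers closely. Its log2 ratio correlated at 0.933 over the 18 arrays with the mean of 10 platelet markers, none of which is in the gene set. Both were lowest on HFD replicate 2, with Fth1 at -1.29 and the platelet list at -2.09, and both were highest on LFD replicate 2, with 1.27 and 1.26. The platelet list ranged from -2.09 to 0.99 on HFD, from -1.33 to -0.13 on HPD and from -0.64 to 1.26 on LFD, and its summed Cy5 signal ranged from 116000 to 812000 units on HFD, from 173000 to 376000 on HPD and from 202000 to 1060000 on LFD. All 10 platelet markers had a lower mean on HPD than on LFD, against 46.1% of all probes. All 10 were also lower on HFD than on LFD, against 48.5%, and on HPD than on HFD, against 47.7%. Their median difference was -0.58 for HPD minus LFD, -0.24 for HFD minus LFD and -0.28 for HPD minus HFD, and none was called. The markers share the arrays, so their signs are not independent of each other. Platelets are not mononuclear cells, and their part in the Fth1 difference was not tested.

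**Figure D4:**
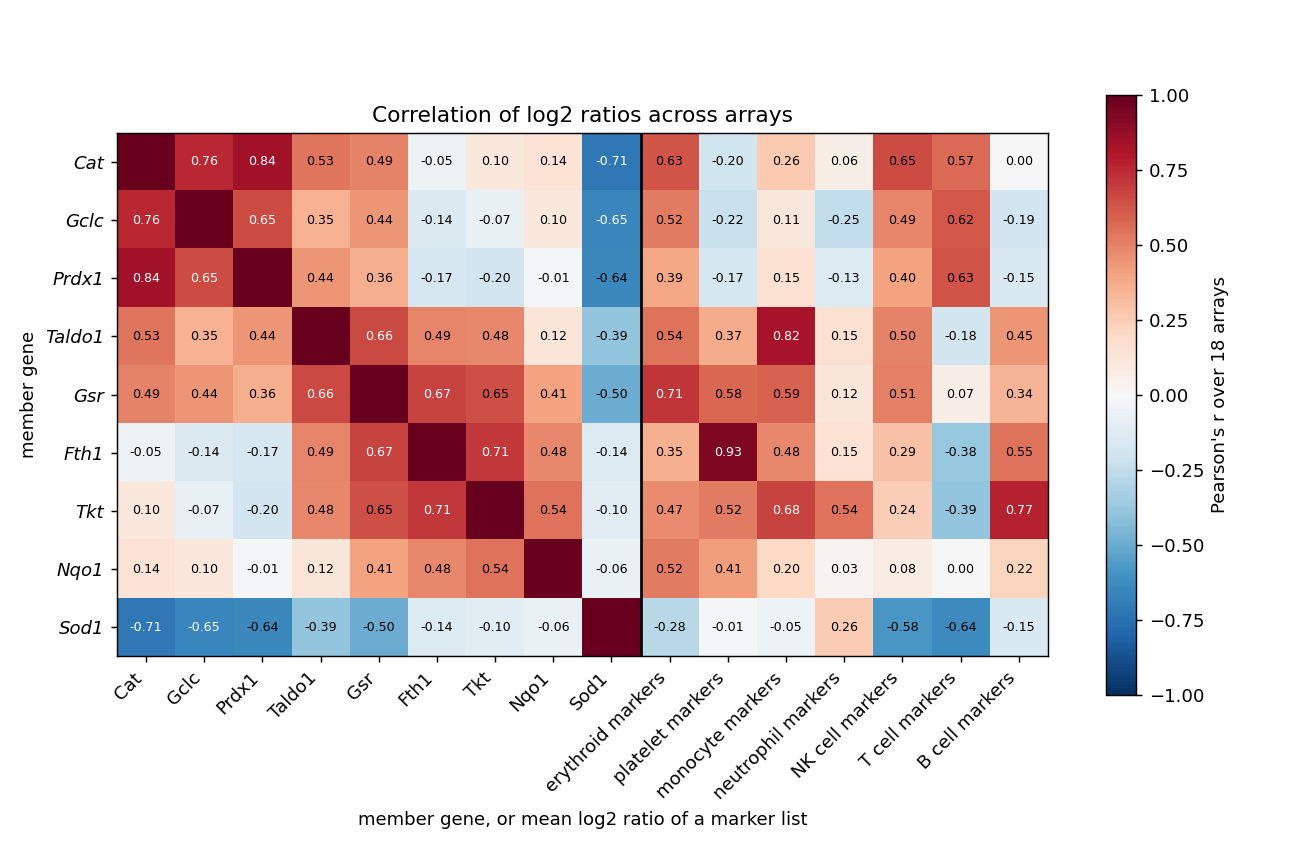
Pearson's r over 18 arrays between the log2 ratios of the 9 genes, and, right of the black line, between each gene and the mean log2 ratio of 7 lists of cell type markers. Cat, Gclc and Prdx1 form a block at 0.65 to 0.84 that is opposed to Sod1, and Fth1 stands out beside the platelet list at 0.93 and Taldo1 beside the monocyte list at 0.82.

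Across arrays, whatever their diet, groups of genes were read from the correlations themselves, and they did not follow the biochemical order of the pathway. Cat, Gclc and Prdx1 moved together with r of 0.653 to 0.84, and each was opposed to Sod1, at -0.711, -0.652 and -0.643. Fth1, Tkt, Gsr and Nqo1 were linked at 0.405 to 0.709, and Taldo1 joined Gsr at 0.661. The groups were not distinct, since Cat correlated with Gsr at 0.495 and with Taldo1 at 0.533, and Gclc with Gsr at 0.442. Other pairs across the groups, Sod1 aside, were lower, down to -0.195 for Prdx1 and Tkt. Sod1 was also opposed to Gsr at -0.5 and to Taldo1 at -0.393, and lay between -0.139 and -0.063 with Fth1, Tkt and Nqo1. Over all 36 pairs r ran from -0.711 to 0.84. These are descriptions over 18 arrays that share the pool and the slides, with no test.

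The mean of Cat differed between slides, although the test of slide did not pass adjustment. Its mean log2 ratio was 0.67, 0.17, -0.16, -0.64 and -0.95 on slides 1 to 5, and that of Gclc was 1.31, 0.19, -0.08, -0.44 and -0.63. Slide 5 held only 2 arrays, and the Cat ratio was -0.18 on its HFD array and -1.71 on its LFD array, so 1 array sets that mean apart. On slide 4 the Cat ratio of 2 HPD and 2 LFD arrays lay between -0.72 and -0.52, while on slide 2 the arrays spread from -0.53 to 0.58. A limma test of slide with diet in the model gave an adjusted p of 0.0876 for Cat, 0.139 for Gclc and 0.174 for Nqo1. So 0 of 9 genes passed after adjustment, against 0.353% of all probes, and these 3 passed an unadjusted p of 0.05, against 23.2% of all probes. The mean erythroid marker level was 0.50, -0.26, -0.31, -0.60 and -0.70 on the same slides, and it correlated with Cat at 0.626 and with Gsr at 0.711. Cat correlated as strongly with the mean of 12 NK cell markers, at 0.65, and at 0.568 with that of 15 T cell markers. The NK cell markers averaged 0.38, -0.04, -0.24, -0.39 and -0.03 on slides 1 to 5. Red cells are rich in catalase, and the part of these cell types in the values was not tested. The erythroid list ranged from -1.17 to 0.56 on HFD, from -0.97 to -0.11 on HPD and from -0.80 to 0.64 on LFD. Of its 18 genes, 17 had a lower mean on HPD than on LFD, against 46.1% of all probes, with a median difference of -0.64. On HPD 16 were lower than on HFD, against 47.7%, and on HFD 10 were lower than on LFD, against 48.5%. None was called.

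**Figure D5:**
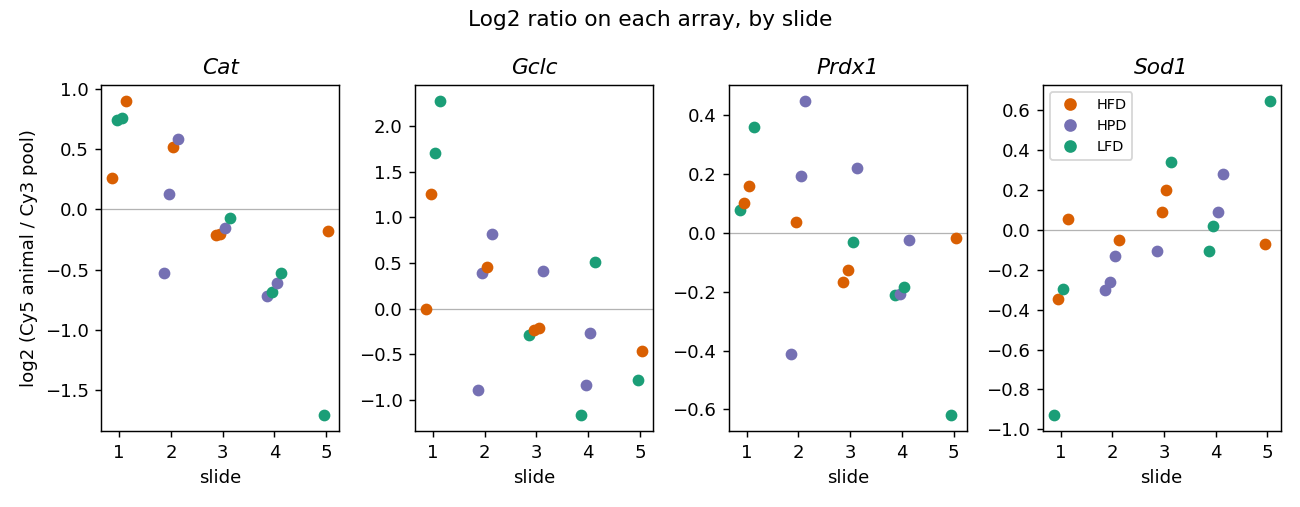
Log2 ratio of Cat, Gclc, Prdx1 and Sod1 on each array (y axis, log2 units, own scale per panel) against the slide it lay on (x axis), coloured by diet. Cat and Gclc have their highest slide mean on slide 1, which held no HPD array, and Sod1 has its lowest there, at -0.38.

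The genes whose pattern over the 18 arrays was most like each member, among 10230 named genes by Pearson's r, reached 0.883 or more for every member but Nqo1. For Fth1 they were Ap2m1 at 0.963, Skap2 at 0.959 and Pdlim1 at 0.958, and for Gsr they were Tpm4 at 0.938, Ctnna1 at 0.913 and Cmpk1 at 0.911. For Cat they were Snx4 at 0.973, Rbbp7 at 0.96 and Cnbp at 0.96, for Sod1 Far1 at 0.957, Ubp1 at 0.94 and Abhd13 at 0.933, and for Prdx1 Capn7 at 0.93, Scfd1 at 0.929 and Gabpb1 at 0.916. Taldo1 was nearest to Cab39 at 0.914, Ralb at 0.908 and Lmo2 at 0.883, and Tkt to Dhrs3 at 0.901, Unc93b1 at 0.891 and Myo1f at 0.888. Gclc was nearest to Dync1li1 at 0.903, Cdk13 at 0.901 and Il10rb at 0.899. Nqo1 had the lowest values, with Mocs3 at 0.723, Cenpb at 0.705 and Hdlbp at 0.704. Its Cy3 signal was well above background on 6 of 18 arrays and that of Gclc on 2, and the part of dim signal was not tested. All these genes were picked as the highest of 10230 correlations over 18 arrays, with no test.

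The rest of the pathway was taken from lists of glutathione, pentose phosphate, peroxide, NRF2 and iron genes, of which 90 were tested. None of the 90 was called in any comparison by limma. At an unadjusted p of 0.05, 1, 2 and 0 passed for HFD against LFD, HPD against LFD and HPD against HFD. Of all probes, 2.01, 2.84 and 3.02% did. The median difference of the 90 was -0.01, -0.04 and -0.05 in the 3 comparisons. A lower mean was found for 46, 56 and 54 of 90, against 48.5, 46.1 and 47.7% of all probes. The median of the 9 genes above for HPD minus LFD was -0.30, but the choice of those 9 was made with results of these data known.

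Among 31 other glutathione genes, Gstm4, a glutathione transferase, had a higher mean on HPD, -0.05, than on LFD, -0.44, a difference of 0.39 ± 0.15 (limma adjusted p = 1). Ggt1, the gamma-glutamyl transferase that breaks down extracellular glutathione, averaged -0.22 on HFD and 0.21 on LFD, a difference of -0.43 ± 0.20 (adjusted p = 1). Gstm2 had the smallest p of the lower ones on HPD, at -0.52 ± 0.32 against LFD (adjusted p = 1). For HFD minus LFD, Gstm4 was at 0.14, Mgst1, a microsomal glutathione transferase, at 0.22 and Gsto1 at -0.16. For HPD minus LFD, Esd was at 0.11 and Ggt1 at -0.25. For HPD minus HFD, Gstm4 was at 0.25, Mgst3 at 0.28, Hagh at -0.19 and Gpx1, a glutathione peroxidase, at -0.28. In this list 19 of 31 were lower on HFD and 19 of 31 on HPD than on LFD, against 48.5 and 46.1% of all probes.

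Of 10 other genes of the pentose phosphate pathway and of NADPH supply, 2 were lower on HFD and 4 on HPD than on LFD. Of all probes, 48.5 and 46.1% were. Me1, malic enzyme, differed from LFD by -0.36 ± 0.61 on HFD (limma adjusted p = 1) and by -0.68 ± 0.61 on HPD (adjusted p = 1). Nnt, which makes NADPH in mitochondria, differed from LFD by 0.19 ± 0.14 on HFD (adjusted p = 1), and Idh1, the isocitrate dehydrogenase of the cytosol, by 0.31 ± 0.27 (adjusted p = 1). The smallest p for HPD against LFD was that of Prps2, which makes phosphoribosyl pyrophosphate, at 0.145 ± 0.11 (adjusted p = 1), in the opposite direction to Me1. Rpe and Rpia, the epimerase and isomerase of the pathway's pentose phosphates, were at 0.08 and -0.17 in that comparison. For HPD minus HFD, Prps2 was at 0.11, Pgls at 0.06, Idh1 at -0.36 and Rpia at -0.28.

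Of 21 other genes of peroxide, superoxide and thioredoxin, 13 were lower on HFD and 11 on HPD than on LFD. Of all probes, 48.5 and 46.1% were. Txnip, which binds and inhibits thioredoxin, averaged 0.36 on HFD and -0.04 on LFD, a difference of 0.40 ± 0.21 (limma adjusted p = 1). Msra, which repairs oxidised methionine, averaged -0.28 on HFD and 0.04 on LFD, a difference of -0.32 ± 0.18 (adjusted p = 1). On HPD the smallest p was that of Msrb2 at 0.23 ± 0.13 (adjusted p = 1). The next for HPD minus LFD were Sod3, the extracellular superoxide dismutase, at 0.13, Ccs, the copper chaperone of Sod1, at -0.26 and Txnrd1, a thioredoxin reductase, at -0.11. For HFD minus LFD, Msrb2 was at 0.15 and Txn2 at -0.15. For HPD minus HFD, Msra was at 0.24, Txn2 at 0.14, Oxr1 at -0.35 and Txnip at -0.30.

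The regulators of the NRF2 response showed no called gene among 10. Nfe2, a relative of NRF2 that is typical of erythroid and platelet precursors, averaged -0.31 on HFD, -0.55 on HPD and 0.13 on LFD, and HPD minus LFD was -0.68 ± 0.40 (limma adjusted p = 1). Mafk, a small Maf partner of these factors, averaged -0.33 on HPD and 0.04 on LFD (adjusted p = 1). Mafg was at 0.15 and Nfe2l1 at 0.02 for HPD minus LFD. For HFD minus LFD, Nfe2l1 was at 0.12, Bach2 at 0.17, Nfe2 at -0.44 and Bach1, a repressor at antioxidant response elements, at -0.15. For HPD minus HFD, Mafg was at 0.06, Mafk at -0.41 and Bach2 at -0.21. Of 18 other NRF2 targets and iron genes, Osgin1 averaged -0.43 on HFD and 0.21 on LFD, a difference of -0.64 ± 0.25 (adjusted p = 1). Tbxas1, thromboxane synthase, averaged -0.39 on HPD and 0.15 on LFD, a difference of -0.54 ± 0.26 (adjusted p = 1). Nqo2, a relative of Nqo1, averaged 0.53 on HFD, 0.20 on HPD and 0.25 on LFD, with HFD minus LFD at 0.27 ± 0.18 (adjusted p = 1). For HFD minus LFD, Ncoa4 was at 0.24 and Hmox2 at -0.13. For HPD minus LFD, Ugdh was at 0.17, Cbr1 at 0.06 and Sqstm1 at -0.34. For HPD minus HFD, Osgin1 was at 0.42, Cbr1 at 0.14, Nqo2 at -0.33 and Ftl1, the ferritin light chain, at -0.31.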

How the data were processed

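RNA of 18 rats was hybridised to 2-colour arrays, 1 rat per array. For each array the deposited scanner file (Agilent Feature Extraction 10.5.1.1, according to the submitters' processing notes) gives processed signals. Per the file headers these are intensity values from which the software had taken the background and which it had normalized for dye, and the log2 ratio of Cy5 over Cy3 was computed from them. A second deposited table held log2 values by the authors, of unstated processing and centring (median 8.4 in each column). Set against the log2 ratios, its differences between arrays correlated at 0.891 with a slope of 0.702, so its direction was settled; it served as an alternative and held 9 of the 12 member probes.

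Control spots were left out, marked outlier spots set to missing and spots of a probe averaged. A probe was tested where at least 5 of the 18 arrays had its Cy5 signal well above background. Group means were fitted over all arrays with limma 3.58.1 (R 4.3.3), with Benjamini-Hochberg adjustment and a threshold of 0.05. The arrays' number limits the precision. All 3 groups share 1 estimate of spread. Each array was taken as a separate animal, following the labels. Names came from the files or from RefSeq genes of GRCr8. Probe positions are those of the array design on rn4, and whether they lie in exons or UTRs was not analysed here.

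The text names all 10 members, the 3 genes most like each, and, in each list of other pathway genes, the 2 with the smallest p in each direction per comparison, of which 1 is not reported here. Members and lists were chosen with earlier results of these data known. Slide, replicate number, background correction, scaling, centring, filters, array weights, the conflicting array and each array left out were tried as alternatives.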

Additional observations from a re-analysis of the deposited data

Results flagged for a closer look

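Among 33 groups of 6 arrays, formed by 11 probes and 3 diets, an array stood apart from the others of its diet in 2, where chance marks about 1 in 20. For Taldo1, LFD replicate 2 had a log2 ratio of 0.31, and the nearest LFD array was at -0.10, a gap of 0.75 of the group's range. For the dimmer Fth1 probe, HPD replicate 7, the array whose title says HFD, was at 0.38 and the nearest HPD array at -0.48, a gap of 0.626 of the range.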

How the results depend on the processing

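No member passed adjustment under any alternative, and the limits are few arrays, slides unequal in diet, and dim probes for Gclc and Nqo1. By limma, 2 probes that are not members, Fscn3 (-0.83) and Rarres2 (-1.58), passed for HPD against LFD with array quality weights, and 1 of them, Rarres2, without LFD replicate 2, so leaving out 1 array gave 0 to 1. They are named because of their values. There were 16 alternatives for Gclc and Nqo1, 18 for Fth1 and Sod1 and 17 for the others. All 17 kept the sign of Cat, Taldo1 and Tkt for HFD against LFD. They also kept that of Cat, Gsr, Prdx1 and Taldo1 for HPD against HFD, and of Gsr, Prdx1 and Tkt for HPD against LFD. All 18 kept the sign of Fth1 for HPD against HFD and against LFD. The Nqo1 difference from LFD passed an unadjusted p of 0.05 in 12 of 16 alternatives on each diet. Most of these kept the same Cy3 signals, in which that difference lay, so the count is not independent support. With Cy5 alone it was 0.020 on HFD and 0.040 on HPD, and values with the normexp background model are given above. Unadjusted only, Tkt passed for HPD against LFD in 4 alternatives (-0.31 to -0.38), Gsr with normexp of all spots (-0.46) and Cat for HFD against LFD with Cy5 alone (0.83). Same-numbered arrays did not pair, since 16 pairs correlated at -0.318 to 0.227 and 6 exceeded 0.1.

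Signs turned as follows, and the cause was not tested. With Cy5 alone, Gclc for HFD against LFD was 0.11, Nqo1 0.020 for HFD and 0.040 for HPD against LFD, and Sod1 -0.20 for HFD against LFD and 0.037 for HPD against HFD. With slide as a fixed block, Cat for HPD against LFD was -0.036, Gclc for HPD against HFD 0.23, Nqo1 for HPD against HFD -0.19 and Taldo1 for HPD against LFD 0.017, and as a random block Nqo1 for HPD against HFD was -0.035. Without slide 1, for HFD against LFD Fth1 was 0.073, Gclc 0.32, Gsr 0.10 and Sod1 -0.18, for HPD against LFD Gclc was 0.37 and Taldo1 0.017, and for HPD against HFD Gclc was 0.051. With the replicate block, Cat for HPD against LFD was -0.093, Sod1 0.11 for HPD against LFD and 0.079 against HFD, and Nqo1 for HPD against HFD -0.052. With array weights, for HFD against LFD Fth1 was 0.12, Gclc 0.0185, Gsr 0.11 and Sod1 -0.013, for HPD against LFD Gclc was 0.082, and for HPD against HFD Gclc was 0.063 and Nqo1 -0.057. With HPD replicate 7 counted as HFD, Gclc was 0.12, Nqo1 -0.062 and Sod1 0.021 for HPD against HFD, and Sod1 -0.0015 for HFD and 0.020 for HPD against LFD, and with it left out Nqo1 for HPD against HFD was -0.025 and Sod1 for HPD against LFD 0.020. In the authors' table Prdx1 was -0.0008 and Sod1 -0.092 for HFD against LFD, Sod1 0.052 for HPD against LFD, and Sod1 0.14 and Tkt 0.0038 for HPD against HFD. Cat for HPD against LFD was -0.22 with normexp of all spots and -0.062 without marked spots.

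Leaving out 1 array in turn turned signs in these ranges. For HFD against LFD they were -0.39 to 0.063 for Fth1, -0.55 to 0.14 for Gclc, -0.34 to 0.13 for Gsr, -0.004 to 0.19 for Prdx1, -0.14 to 0.17 for Sod1 and -0.13 to 0.022 for Tkt. For HPD against LFD they were -0.26 to 0.23 for Cat, -0.19 to 0.12 for Sod1 and -0.10 to 0.011 for Taldo1. For HPD against HFD they were -0.37 to 0.03 for Gclc, -0.074 to 0.095 for Nqo1 and -0.043 to 0.13 for Prdx1.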
